A study of Homo sapiens with 8 samples.

Results

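The cluster of miR-132 and miR-212 is a pair of microRNA hairpins, MIR132 and MIR212, that lie side by side on the short arm of chromosome 17 and give 4 mature arms. Its members were taken by name, and 3 of the 4 arms (hsa-miR-132-3p, hsa-miR-132-5p and hsa-miR-212-3p, written below without the prefix) had values among the 945 miRNAs of the series, while miR-212-5p was not analysed here. The cluster was chosen by an earlier look at these data, in which miR-132-3p stood higher in untreated R273H than in untreated EV cells. That contrast is therefore given as a description for each member, with no test. Small RNA was sequenced from H1299, a human lung cancer cell line (non-small cell carcinoma) lacking p53, carrying either an empty vector (H1299/EV) or stably expressed mutant p53 R273H (H1299/R273H). The R273H cells grew from G418-resistant colonies after transfection with a pCMV-Neo-Bam plasmid, whereas the EV cells came from another laboratory, so colony selection and origin cannot be told apart from the mutant protein. Each line was left untreated or exposed for 24 h to etoposide, a topoisomerase II poison that leaves DNA breaks, which gives 4 groups of 2 libraries. The labels give the dose once as 10 µM and once as 10 mM. The study calls the 2 libraries of a group biological replicates, and nothing further on their origin was used.

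MIR132 and MIR212 are processed from a common primary transcript. Their transcription is a textbook target of CREB, the factor that binds cyclic AMP response elements (CRE) after calcium, growth factor or cyclic AMP signals, and the cluster is best known from active neurons, although many other cells make it too. The 3p arms share their seed, bases 2 to 8, which is the stretch that pairs with target mRNAs, and miR-132-3p is known to repress RASA1 and ARHGAP32.

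The mature sequences are shown because they tell which members can share targets. They are the RefSeq sequences, written 5′ to 3′ with the seed in capitals.
miR-132-3p: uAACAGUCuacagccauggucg
miR-212-3p: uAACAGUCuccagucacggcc
miR-132-5p: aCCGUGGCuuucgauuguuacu
miR-212-5p: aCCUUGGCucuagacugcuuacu

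Both 3p arms carried the seed AACAGUC, and no other miRNA of the RefSeq table did. Over the first 21 bases, 17 were identical, and the differences (miR-132-3p base first, counted from 1 at the 5′ end) were A10C, C14U, U17C and U20C, all outside the seed. A read of the full arm can thus be told apart between the 2 hairpins. The 5p arms matched at 14 of 22 bases, and G4U lies in the seed, so the 5p arms are in separate seed families.

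By a match of the RefSeq hairpins to GRCh37, MIR132 spans chr17:1953202-1953302 and MIR212 spans chr17:1953565-1953674, both on the minus strand, with 262 bases between them. Neither hairpin overlapped a gene or exon of the annotation used, but that annotation also lacks MIR132 and MIR212 themselves. The nearest protein-coding gene in it was HIC1, 3773 bases away. DPH1, OVCA2 and SMG6 lay 6009, 6482 and 9458 bases away.

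The DNA around the hairpins was searched for the palindromic CRE, TGACGTCA, and for its core TGACG on either strand, since these are the letters that CREB is known to bind. The matches are shown with 3 flanking bases at each end and the CRE in capitals, on the strand of the hairpins (GRCh37, minus strand).
Pair upstream of MIR212, chr17:1953769-1953798: cttTGACGTCAcggccctcTGACGTCAggg
Site between the hairpins, chr17:1953331-1953344: cccTGACGTCAgcc

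The pair lies 121 to 98 bases before the MIR212 hairpin, at offsets -121 and -98 from its 5′ end, and the third match begins 333 bases after that end, just before MIR132. Among the 1000-base windows upstream of 3043 hairpins, those of MIR132 and MIR212 included, 22 (0.723%) held a CRE. The window of MIR132 held 3 and that of MIR212 held 2. The windows overlap, as do the CRE and its core, which was found 6 times in each window. The core alone occurred upstream of 29.182% of hairpins, and at least 6 copies upstream of 0.263%. A match of letters is not a site in use.

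The libraries were shallow, and reads of these arms were few, so counting error was wide and the spread between replicates came on top of it. Annotated reads numbered 234545 to 579367 per library, and miRNA reads 213007 to 536991, of which miR-21-5p took 30.6% to 44.5%. The factors of TMM (trimmed mean of M-values, a scaling for composition) were 1.49 in EV etoposide replicate 1 and 1.60 in R273H etoposide replicate 2, against 0.771 to 1.03 in the other 6 libraries. Reads of miRNAs known from other cell types were few, but so were reads of the members. Summed over its markers, the epithelial list (6 of 6 listed) ranged from 3.95 to 44.3 RPM (reads per 1000000 miRNA reads of the library), and the blood list (4 of 6 listed) from 5.73 to 70.4 RPM. Liver miR-122-5p ranged from 0 to 32.9 RPM. The highest blood and liver values were both in EV etoposide replicate 1, where miR-212-3p also stood at 70.4 RPM. The highest miR-212-3p level, 74.5 RPM, was in R273H etoposide replicate 2, where the blood list stood at 5.73 and miR-122-5p at 0 RPM. The muscle list (3 of 4 listed) was at 0 to 5.92 RPM except in R273H untreated replicate 2, where it reached 59.0 RPM, and the neuronal marker miR-124-3p had 0 to 3 reads. In the 2 untreated R273H libraries, with the muscle list at 0 and 59.0 RPM, miR-132-3p stood at 84.1 and 93.4 RPM. The part of these RNAs in the results was not tested.

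miR-132-3p, the arm usually loaded as the guide of MIR132, gave 16 and 9 reads in untreated EV, 26 and 12 in EV with etoposide, 38 and 38 in untreated R273H, and 32 and 44 in R273H with etoposide. As a share of miRNA reads these were 29.8 and 36.0 RPM, 122 and 33.1 RPM, 84.1 and 93.4 RPM, and 63.2 and 126 RPM. The 2 untreated EV libraries were low, the 2 untreated R273H libraries were high and alike, and each treated group held a low and a high library. Counting error alone was wide, with an exact 95% Poisson interval of 16.5 to 68.4 RPM in EV untreated replicate 2 and of 59.5 to 115 RPM in R273H untreated replicate 1. Such intervals cover counting error only, since copies made by PCR are not independent molecules.

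For miR-132-5p, the arm from the other side of the same hairpin, 33 and 13 reads were found in untreated EV, 20 and 9 in EV with etoposide, 32 and 30 in untreated R273H, and 45 and 47 in R273H with etoposide. The corresponding levels were 61.5 and 52.0 RPM, 93.9 and 24.8 RPM, 70.8 and 73.8 RPM, and 88.8 and 135 RPM. Treated EV libraries spanned the values of all untreated libraries, and both treated R273H libraries lay above the untreated R273H libraries on this scale. How many of all miRNAs separated in this way in RPM was not counted, and in normalized counts the R273H groups overlapped.

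miR-212-3p was the least abundant, with 12 and 5 reads in untreated EV, 15 and 11 in EV with etoposide, 8 and 7 in untreated R273H, and 21 and 26 in R273H with etoposide. These are 22.3 and 20.0 RPM, 70.4 and 30.4 RPM, 17.7 and 17.2 RPM, and 41.4 and 74.5 RPM. All 4 treated libraries lay above all 4 untreated libraries. The share of all miRNAs with such a separation was not counted, so it is given as a description only.

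**Figure D1:**
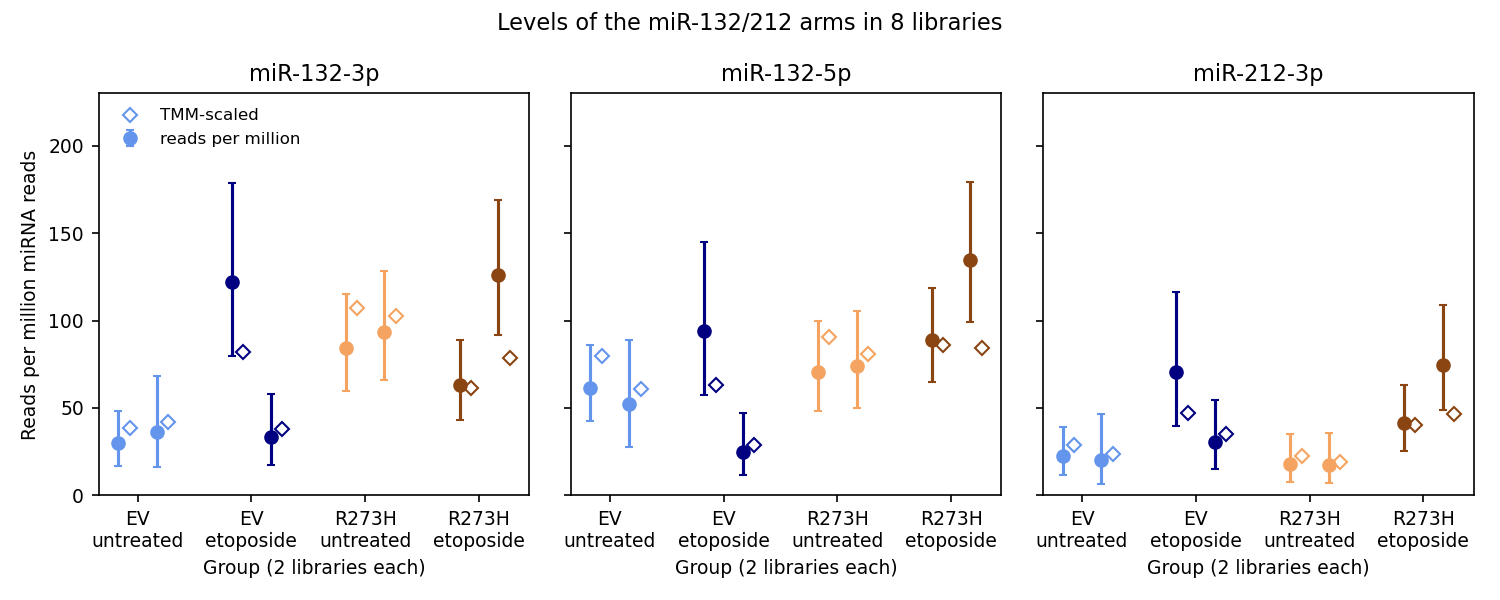
Level of each arm in every library, in RPM, with exact 95% Poisson intervals (filled circles), and after TMM scaling over all 8 libraries (open diamonds, no interval). miR-132-3p is high in both untreated R273H libraries, and miR-212-3p is higher in all 4 etoposide libraries than in the 4 untreated ones.

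After TMM scaling over the 8 libraries, the order of the group means of miR-132-3p was untreated R273H, at 105 ± 3.26 scaled RPM (SD, n = 2), then R273H with etoposide at 70.0 ± 12.3, EV with etoposide at 60.1 ± 30.9, and untreated EV at 40.4 ± 2.46. Only the first step in this order separated neighbouring groups, since the libraries of the other neighbours overlapped. The order of miR-132-5p was untreated R273H at 85.8 ± 6.57, treated R273H at 85.1 ± 1.54, untreated EV at 70.3 ± 13.3 and treated EV at 45.9 ± 24.3. Here the libraries of the R273H groups overlapped, as did those of the EV groups. For miR-212-3p the treated groups came first, with R273H at 43.4 ± 4.42 and EV at 41.2 ± 8.67. Untreated EV followed at 26.2 ± 3.95 and untreated R273H at 20.8 ± 2.60. The libraries of the treated groups overlapped, and both lay above the untreated groups. By mean RPM, miR-132-3p ranked from 192 of 600 miRNAs with a read in untreated EV to 136 of 601 in untreated R273H, and miR-212-3p ranked from 246 of 601 in untreated R273H to 194 of 588 in treated EV.

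The split of reads between arms is a ratio within a library, which no scaling factor can change. The 3p share of miR-132 reads was 32.7% and 40.9% in untreated EV, 56.5% and 57.1% in EV with etoposide, 54.3% and 55.9% in untreated R273H, and 41.6% and 48.4% in R273H with etoposide. Untreated EV libraries had the lowest shares, although 40.9% and 41.6% are neighbours. With the reads of a group added, the share was 35.2% (exact 95% Clopper-Pearson interval 24.2% to 47.5%, 25 of 71 reads) in untreated EV and 55.1% (46.4% to 63.5%, 76 of 138) in untreated R273H. After etoposide it was 56.7% (44.0% to 68.8%) in EV and 45.2% (37.6% to 53.1%) in R273H. The 2 lines thus stood in opposite order before and after treatment, with overlapping intervals in both cases. The untreated shares contain the miR-132-3p reads by which the cluster was chosen. Their order, and its change after treatment, is therefore a description and not a further result.

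The split between the 2 hairpins also differed between groups. miR-212-3p supplied 17.4% and 15.6% of the reads of the shared 3p seed in untreated R273H. In the other 6 libraries it supplied 35.7% to 47.8%, with 42.9% and 35.7% in untreated EV, 36.6% and 47.8% in treated EV, and 39.6% and 37.1% in treated R273H. Added over a group, the share was 16.5% (9.5% to 25.7%, 15 of 91 reads) in untreated R273H and 38.2% (29.6% to 47.4%, 47 of 123) in treated R273H. In EV it was 40.5% (25.6% to 56.7%) untreated and 40.6% (28.5% to 53.6%) treated. The groups of 2 libraries allow no exact permutation p under 0.333, so no test of these shares is given. The low share in untreated R273H contains the high miR-132-3p value by which the cluster was chosen, so it is a description and not a further result.

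Taking both 3p arms as a single dose of the AACAGUC seed gave 52.1 and 56.0 RPM in untreated EV, 192 and 63.5 in treated EV, 102 and 111 in untreated R273H, and 105 and 201 in treated R273H. Both untreated R273H libraries lay above both untreated EV libraries, and the treated groups overlapped. The untreated separation contains the miR-132-3p reads by which the cluster was chosen, so it is not a further result. In normalized counts, 61.5% of all 304 miRNAs tested did not overlap between the untreated lines.

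**Figure D2:**
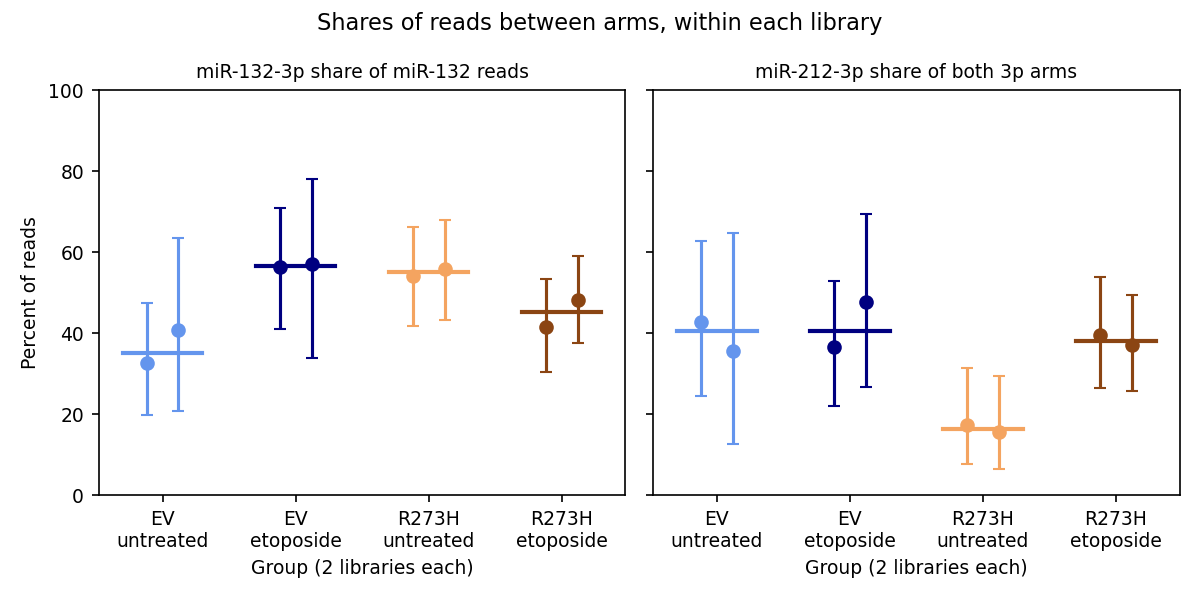
Shares of reads within each library, in percent, with exact 95% Clopper-Pearson intervals (points) and the share of the added reads of each group (bars). In the left panel the miR-132-3p share is lowest in untreated EV, and in the right panel the miR-212-3p share is 15.6% and 17.4% in untreated R273H and at least 35.7% elsewhere.

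In untreated cells, the contrast that put the cluster forward, the deposited normalized counts of miR-132-3p were 11.1 and 14.3 in EV and 39.0 and 33.8 in R273H. The log2 fold change of R273H over EV, on the log2(normalized count + 1) scale used for each table of the authors, was 1.45 (SE 0.46). miR-132-5p had 22.9 and 20.7 in EV and 32.8 and 26.7 in R273H, a log2 fold change of 0.43 (SE 0.45). miR-212-3p had 8.31 and 7.97 in EV and 8.21 and 6.22 in R273H, a log2 fold change of -0.16 (SE 0.55), which came to 0.011 without 1 of the libraries. The groups thus did not overlap for the 2 arms of MIR132, which lay higher in R273H, and overlapped for miR-212-3p, whose RPM were lower in both R273H libraries. Over all 304 miRNAs tested in this contrast, 61.5% did not overlap between the groups, and 27.3% were called, that is, had p under 0.05 and at least a 2-fold change (both criteria hereafter). The median log2 fold change of all miRNAs was 0.10.

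The same lines compared after etoposide use 4 libraries that had no part in choosing the cluster, and there the higher level of miR-132-3p in R273H was not seen. Its log2 fold change of R273H over EV was 0.06 (SE 0.48, 95% interval -0.88 to 1.00), with an adjusted p of 0.949 in edgeR's quasi-likelihood test on the recovered reads. It came to -0.41 without EV etoposide replicate 2 and to -0.16 without R273H etoposide replicate 2, so its direction rests on single libraries. The EV libraries were themselves far apart, with 26 reads among 213007 miRNA reads against 12 among 362242. For miR-132-5p the log2 fold change was 0.72 (SE 0.49, 95% interval -0.24 to 1.68, edgeR adjusted p = 0.317), with both TMM-scaled R273H libraries above both EV libraries, whereas in RPM the groups overlapped. It met both criteria at 1.04 (edgeR adjusted p = 0.0737) with upper quartile scaling and at 1.43 (edgeR adjusted p = 0.0787) without EV etoposide replicate 1, but not the correction over all miRNAs. miR-212-3p stood at -0.08 (SE 0.56, edgeR adjusted p = 0.937), with overlapping libraries and a direction that turned with upper quartile scaling. Of 337 miRNAs tested, 55.5% did not overlap between the treated lines and 24% met both criteria, against 0 of the 3 members by edgeR with TMM, by DESeq2 or by limma with all 4 libraries, and 0 of 3 had an unadjusted p under 0.05 in these 3 fits. The intervals leave room for a change of up to about 2-fold in miR-132-3p.

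Etoposide in EV cells was compared within the table of that line, where all 3 arms lacked a call. miR-212-3p had normalized counts of 7.74 and 7.57 in untreated and of 14.3 and 10.8 in treated cells, a log2 fold change of 0.64 (SE 0.64, limma adjusted p = 0.932), with both treated libraries higher. miR-132-3p had 10.3 and 13.6 in untreated and 24.8 and 11.8 in treated cells, and its log2 fold change of 0.50 (SE 0.58, limma adjusted p = 0.932) rested on EV etoposide replicate 1, without which it was -0.0061. miR-132-5p had 21.3 and 19.7 in untreated and 19.1 and 8.86 in treated cells, a log2 fold change of -0.61 (SE 0.56, limma adjusted p = 0.932). Its treated libraries were the lower ones on this scale, but in RPM they lay on either side of the untreated libraries, and the log2 ratio of the group means was then 0.065. Of the 296 miRNAs tested, 34.1% did not overlap between the groups and 6.76% met both criteria. The count of members that met both criteria, or an unadjusted p under 0.05, was 0 of 3 by limma, edgeR and DESeq2.

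In R273H cells the normalized counts of the 2 seed partners stood on opposite sides after etoposide. miR-212-3p had normalized counts of 10.6 and 8.27 in untreated and of 17.3 and 19.3 in treated cells. Its log2 fold change of 0.89 (SE 0.39, 95% interval 0.055 to 1.73) had an unadjusted p under 0.05 but an adjusted p of 0.495 in limma, so it missed both the 2-fold limit and the correction over all miRNAs. Without R273H untreated replicate 1 it was 1.06 and met both criteria (limma adjusted p = 0.293). In RPM, which leaves out the size factors, the log2 ratio of its group means was larger, at 1.73. The other fits on all 4 libraries, edgeR and DESeq2 on recovered reads included, gave 0.69 to 0.95, also under 2-fold. miR-132-3p had 50.5 and 44.9 in untreated and 26.4 and 32.7 in treated cells, a log2 fold change of -0.68 (SE 0.32, 95% interval -1.37 to 0.011, limma adjusted p = 0.495). That direction depends on the scaling, because in RPM the untreated values of 84.1 and 93.4 lay between the treated values of 63.2 and 126, with a log2 ratio of group means of 0.092. R273H etoposide replicate 2, whose TMM factor was 1.60, held the higher of these treated values. miR-132-5p had 42.6 and 35.4 in untreated and 37.1 and 34.9 in treated cells, a log2 fold change of -0.11 (SE 0.32, limma adjusted p = 0.964), with overlapping libraries, and it turned to 0.022 without R273H untreated replicate 1. Of the 341 miRNAs tested, 39.3% did not overlap between the groups and 6.16% met both criteria, against 0 of the 3 members by limma, edgeR or DESeq2 on all 4 libraries. An unadjusted p under 0.05 was given to 1 member by limma and to 0 by edgeR and DESeq2. Both etoposide contrasts share their untreated libraries with the contrast by which the cluster was chosen.

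miR-212-3p lay higher with etoposide in all 4 treated libraries, in RPM, after TMM scaling and in the normalized counts of each line. In these normalized counts, 34.1% of all miRNAs did not overlap between the groups in EV and 39.3% in R273H. After the values of miR-212-3p were seen, the effect of etoposide over both lines together was fitted with edgeR on the 8 libraries, with the line as a second term. The log2 fold change of miR-212-3p was 0.83 (SE 0.41, 95% interval 0.0077 to 1.65), with an unadjusted p just under 0.05 and an edgeR adjusted p of 0.357, so it failed the correction. Among 334 miRNAs, 13.8% had an unadjusted p under 0.05 in that fit, and miR-212-3p was number 43 in the order of p. Leaving out any library other than EV etoposide replicate 2 took its edgeR p above 0.05 (log2 fold change 0.72 to 0.95 over the 8 fits). The values of miR-132-3p and miR-132-5p were -0.13 (SE 0.34, edgeR adjusted p = 0.915) and -0.30 (SE 0.32, edgeR adjusted p = 0.719).

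**Figure D3:**
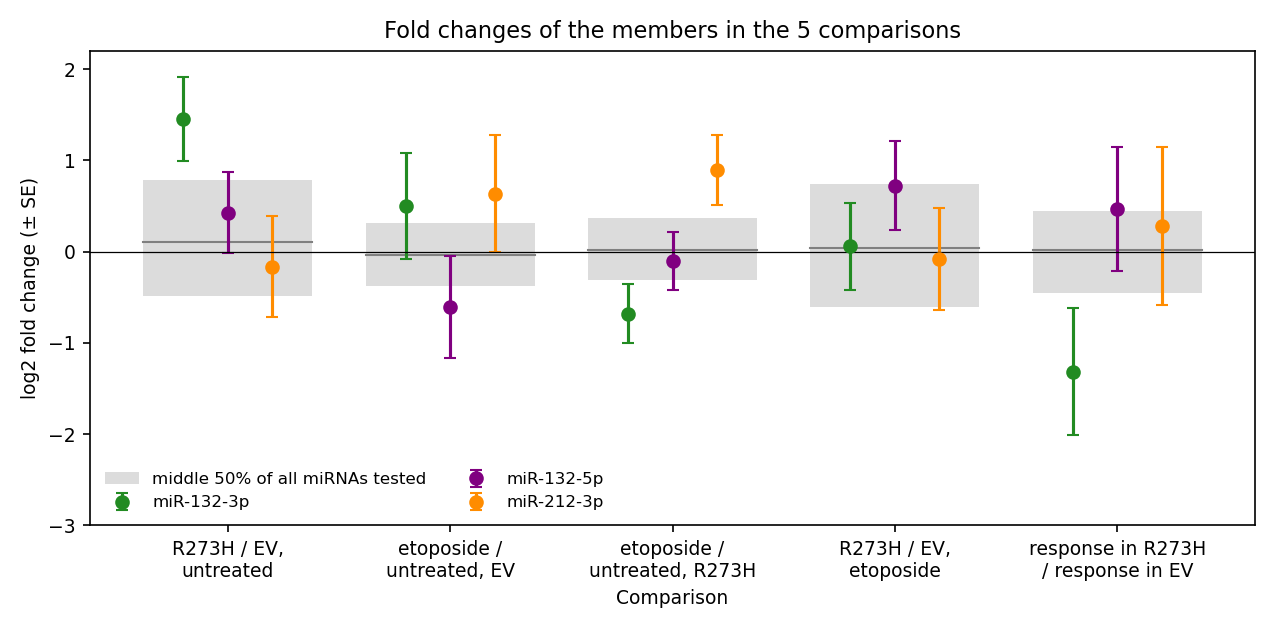
Log2 fold changes of the 3 arms with their standard errors in the 5 comparisons named on the x axis; grey boxes span the middle 50% of all miRNAs tested and the grey line is their median. In untreated cells miR-132-3p (1.45) lies above the box, while after etoposide it lies at 0.06.

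The difference between the etoposide responses of the 2 lines was asked of each member by an interaction term over all 8 libraries. For miR-132-3p the response in R273H was lower than that in EV by a log2 value of -1.32 (SE 0.69, 95% interval -2.68 to 0.047, edgeR adjusted p = 0.9997). The value was -1.38 with upper quartile scaling and -1.80 without EV etoposide replicate 2, both with an unadjusted p under 0.05, and the adjusted p over its alternatives (edgeR, DESeq2 and limma fits) lay between 0.819 and 1. miR-132-5p had 0.47 (SE 0.68) and miR-212-3p had 0.28 (SE 0.86). In this test, 3.59% of 334 miRNAs met both criteria, and 0 of the 3 members did by edgeR, DESeq2 or limma, with 0 of 3 at an unadjusted p under 0.05. Since the interaction contains the untreated line contrast, its value for miR-132-3p is not independent of the choice of the cluster.

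The miRNAs whose pattern over the 8 libraries was nearest to that of miR-132-3p were miR-652-5p, miR-148b-5p, miR-454-5p, miR-96-3p and miR-33a-3p. Likeness was the root mean square difference of log2(TMM-scaled RPM + 1) after each miRNA was centred on its own mean, among 236 other miRNAs with a mean of at least 10 reads. It was 0.33, 0.34, 0.36, 0.37 and 0.38 for these 5, against a median of 0.76. All 5 are low, like miR-132-3p, and are the arms that their hairpins usually yield less of. miR-652-5p, the nearest, had TMM-scaled means of 72.7 ± 16.8 in untreated EV, 85.5 ± 12.8 in treated EV, 141 ± 23.9 in untreated R273H and 138 ± 16.8 in treated R273H (SD, n = 2). The other arm of the same hairpin, miR-132-5p, came at rank 26 (0.50). miR-212-3p, the seed partner, came at rank 125 (0.77), close to the middle of all miRNAs compared.

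**Figure D4:**
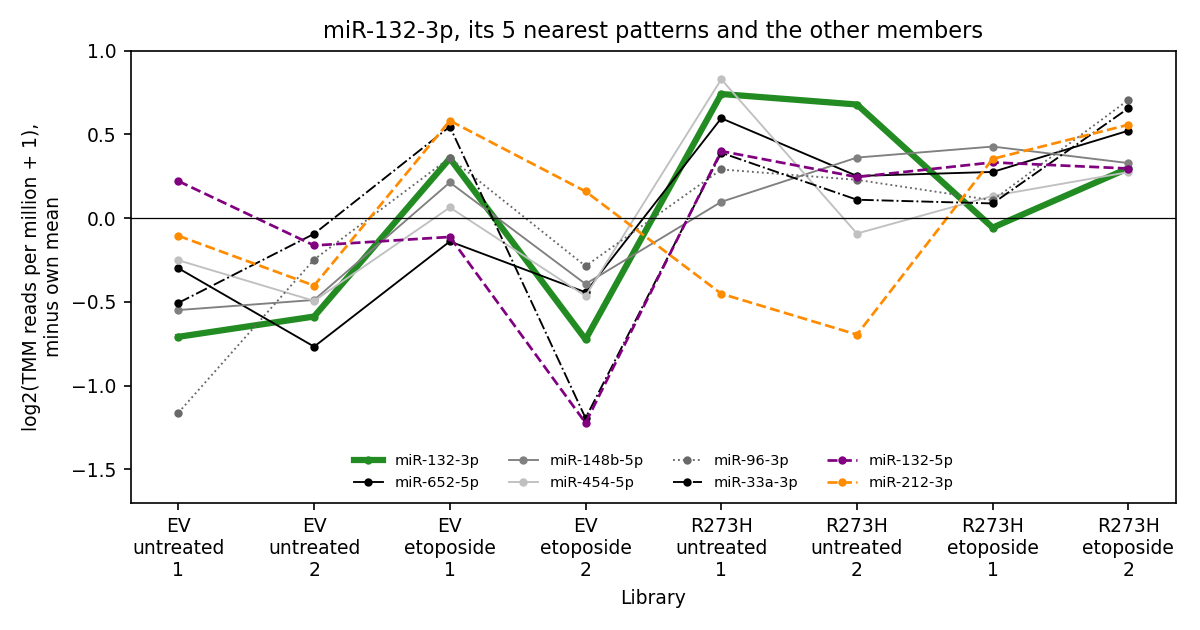
Log2 level of each miRNA in each library after TMM scaling, minus its own mean over the 8 libraries; lines join points only to guide the eye. miR-132-3p (green), drawn with its 5 nearest patterns (grey and black), is highest in untreated R273H, where miR-212-3p (orange) is lowest, and miR-132-5p (purple) is lowest in EV etoposide replicate 2.

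The other miRNAs named from the short arm of chromosome 17 were described as a list, by name. They are spread over the arm and are not close neighbours of the cluster. Where a distance from the cluster was computed, it ran from 697697 bases (MIR1253) to 17294144 bases (MIR1180). MIR324 lay 5172941 bases away. Of 13 names, 11 were listed, with 17 arms. After etoposide, R273H over EV, 1 of 12 tested arms met both criteria, higher in R273H, against 24% of all miRNAs in either direction, and the list's median log2 fold change was 0.50 against 0.04 for all miRNAs. That arm was miR-324-5p, whose TMM-scaled level was 126 ± 32.4 RPM in EV and 450 ± 140 in R273H (SD, n = 2; log2 fold change 1.66, SE 0.37, edgeR adjusted p = 0.000226). It had also been higher in the untreated contrast, where 2 of 11 tested arms were called higher and 0 lower, against 27.3% of all miRNAs. Under etoposide alone, 1 of 10 tested arms was lower in EV and 0 of 13 were called in R273H, against 6.76% and 6.16% of all miRNAs. The EV arm was miR-22-3p, with normalized counts of 458 ± 49.8 untreated and 219 ± 36.4 treated (log2 fold change -1.07, SE 0.35, limma adjusted p = 0.155). It no longer met both criteria without EV untreated replicate 2 (-0.95) or without EV etoposide replicate 1 (-0.90). None of 13 differed between the lines in its response by both criteria.

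miR-132 and miR-212 are often grouped with miRNAs known from neurons, and 14 of 15 such names were listed here, with 27 arms. In the treated cells, 7 of 14 tested arms were lower in R273H and 0 higher, where 47 of all 337 miRNAs were called lower, with a list median of -1.34 against 0.04 for all miRNAs. The called arm miR-129-1-3p had a TMM-scaled mean of 1.16 RPM in treated R273H and passed the filter on low values through EV. miR-9-5p had TMM-scaled levels of 980 ± 315 in EV and 358 ± 56.2 in R273H (log2 fold change -1.60, SE 0.33, edgeR adjusted p = 7.4e-05). miR-138-5p, miR-218-5p and miR-9-3p were lower by log2 values of -1.53 (SE 0.35, edgeR adjusted p = 0.000373), -1.37 (SE 0.34, adjusted p = 0.00115) and -1.62 (SE 0.41, adjusted p = 0.0016). In the untreated contrast 5 of 11 were lower and 0 higher, where 33 of all 304 miRNAs were called lower, with a median of -1.08. Etoposide met both criteria for 2 arms higher and 2 lower of 14 in EV, against 6.76% of all miRNAs, and for 0 of 14 in R273H. None of the 4 arms in EV passed the correction (limma adjusted p 0.139 to 0.440). Of these 4, miR-129-1-3p, miR-219b-5p and miR-129-2-3p had mean normalized counts of 0.645, 0.965 and 1.92 in their lower group, so they passed the filter through the other group and had to differ. The responses of the lines met both criteria for 1 arm in each direction, again miR-129-1-3p and miR-129-2-3p.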

How the data were processed

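The 8 small RNA libraries were sequenced on an Ion PGM instrument. The authors trimmed the reads, kept those of 17 to 35 bases, aligned them to miRBase 20 with SHRiMP and the rest to GRCh37 with Novoalign, counted them per feature and normalized them with DESeq. The deposited signal is a normalized count (reads over the size factor of that library) in 3 tables (EV and R273H untreated, EV with and without etoposide, and R273H with and without etoposide) that were normalized separately. The deposited comparison tables hold the authors' own group means, fold changes and p-values and were not used. The low values, on which this was checked, were all whole multiples of 1 read (100% within 0.1 reads). Reads were therefore recovered, with higher values rounded without that check, and 0 features differed between tables for the same library. Replicate libraries differed by more than sampling noise.

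Within a table, limma 3.58.1 (R 4.3.3, intensity trend) was run on log2(normalized count + 1), with a mean of at least 3 required of a miRNA, which understates fold changes of low miRNAs. Treated lines, which stand in separate tables, and the interaction were tested on recovered reads with edgeR 4.0.16 (quasi-likelihood, TMM, mean of at least 3 reads). A call needed p under 0.05 and at least 2-fold, as in the study, and adjustment was by Benjamini-Hochberg over all miRNAs tested. The smallest exact permutation p of groups of 2 is 0.333. Alternatives were pseudocounts of 0.5 and 5, no filter or a mean of at least 10, upper quartile scaling, limma without the trend, edgeR, DESeq2 1.42.0, a replicate block, each library left out, and a total without miR-21-5p. The fit of etoposide over both lines together was added after the values were seen. The scripts were tested on simulated data.

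The members and lists were chosen with earlier results of these data known. Named are the members, the 5 nearest patterns, and at most 4 called members of each list, taken in order of adjusted p among those above 3 reads in both groups. Sequences are from RefSeq, in which 825 of 945 miRNAs matched by name, and positions are on GRCh37 with GENCODE genes lifted to it. The other steps ran in Python 3.11.15 with scipy 1.17.1 and numpy 2.4.6.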

Additional observations from a re-analysis of the deposited data

How the results depend on the processing

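Of 233 values of the members under the alternatives, 205 counted as unchanged, 11 as turned in direction, and no adjusted p fell under 0.05 (the smallest was 0.0737). Untreated values counted as unchanged if they moved by less than the SD between replicates, which includes the 0.011 of miR-212-3p. The others counted as unchanged if they kept their direction and their side of the threshold. In untreated cells miR-132-3p moved to 1.23 with a pseudocount of 5, and with edgeR miR-132-5p moved to 0.23 and miR-212-3p to -0.39. In the treated lines miR-132-5p moved to 1.04 with upper quartile scaling and met both criteria, as it did without EV etoposide replicate 1, and miR-212-3p turned to 0.22 with that scaling and to 0.075 with no filter. The interaction of miR-132-3p passed p under 0.05 with upper quartile scaling (-1.38), but it contains the untreated contrast by which the cluster was chosen. Over both lines together, miR-212-3p lost its p under 0.05 with upper quartile scaling (0.77) and DESeq2 (0.86).

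With each library left out in turn, log2 fold changes ranged in treated lines from -0.41 to 0.74 for miR-132-3p, from 0.24 to 1.43 for miR-132-5p and from -0.31 to 0.17 for miR-212-3p, the last also at 0.060. They ranged for etoposide in EV from -0.0061 to 1.00 for miR-132-3p, and in R273H from -0.24 to 0.022 for miR-132-5p and from 0.73 to 1.06 for miR-212-3p, which met both criteria at 1.06. The ranges over both lines together were -0.54 to 0.12 for miR-132-3p (also 0.022) and 0.72 to 0.95 for miR-212-3p, and the interaction ranged from -1.80 to -0.76 for miR-132-3p and from -0.022 to 1.05 for miR-132-5p.

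Counts of called miRNAs depended more on the settings. Etoposide in EV gave 20, but 13 with a pseudocount of 5, 10 with a mean of at least 10 and 12 with DESeq2. In R273H it gave 21, but 11, 10 and 10 with these settings and 33 with no filter. The interaction gave 12, but 5 with DESeq2, 32 with no filter and 6 with a mean of at least 10. With each library left out the counts were 52 to 78, against 83, in the untreated lines (52 without R273H untreated replicate 1), 9 to 19 for etoposide in EV (9 without EV untreated replicate 2), 9 to 32 in R273H (9 without R273H etoposide replicate 2, 32 without R273H untreated replicate 1), 50 to 96 in the treated lines (50 and 53 without R273H etoposide replicates 1 and 2) and 10 to 28 for the interaction (28 without EV etoposide replicate 1). The 5 list members named in the treated lines met both criteria in each of 11 alternatives, with adjusted p up to 0.323.

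No shared deviation of same-numbered libraries was seen, since its correlation was -0.027, 0.037, -0.083 and -0.16 in the 4 comparisons between groups. With 2 libraries per group this cannot tell whether they were handled together. A replicate block changed no call of a member (miR-212-3p in R273H 0.89, limma adjusted p = 0.533) and gave 75, 16, 17, 56 and 11 called miRNAs in the 5 comparisons, against 83, 20, 21, 81 and 12. With 5 to 47 reads of an arm per library, changes under 2-fold may have been missed, and the size of change that could be detected was not computed.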
